A study of Arabidopsis thaliana with 6 samples.

Results

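The RPP5/SNC1 cluster is a run of immune receptor genes on chromosome 4 of Arabidopsis thaliana. Its 9 loci, from RPP4 (AT4G16860) to RLM3 (AT4G16990), were taken by locus identifier from a table of raw counts for 37051 genes. The loci were compared between los2-5, a line named for a mutant allele of LOS2, and the wild type Col-0. LOS2 encodes the cytosolic enolase of glycolysis, and the series title asks whether enolase holds down immunity through the genes of NLR receptors. Each genotype had 3 libraries of 3' RNA-seq, which counts reads near the polyadenylated end of a messenger RNA. Every library came from the whole shoots of 3 pooled plants, 2 weeks old, grown on soil at 22 °C in constant light, and replicates came from different pots. One mutant line was compared, so allele and line cannot be told apart.

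NLR proteins are receptors inside the plant cell that detect pathogen effectors and start a strong immune response, often with local cell death. Those of the TIR class carry a Toll/interleukin-1 receptor domain, which in active receptors works as an enzyme on NAD+, and they signal through the EDS1 proteins and helper NLRs. SNC1 became known through a gain-of-function allele that leaves plants dwarfed and constitutively defended, and its protein and transcript are held down by several regulators. RPP4 confers resistance to downy mildew in Col-0, while the resistance gene RPP5 was defined in the accession Landsberg erecta. RLM3, which lacks the leucine-rich repeats of a full receptor, is needed for resistance to the fungus Leptosphaeria maculans.

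In the RefSeq annotation of TAIR10.1 the cluster spanned 77.1 kb, chr4:9488466-9565569. RPP4 (chr4:9488466-9495837), AT4G16880 (chr4:9495983-9497313), SNC1 (AT4G16890, chr4:9500271-9505972), AT4G16900 (chr4:9511859-9516688), AT4G16920 (chr4:9517950-9525800), AT4G16940 (chr4:9531373-9537918), RPP5 (AT4G16950, chr4:9538233-9544755) and AT4G16960 (chr4:9547402-9551028) lie on the minus strand. RLM3 (chr4:9558571-9565569) is the sole member on the plus strand. RPP4, SNC1 and RPP5 have coding sequences of 3444, 4314 and 4350 bases, RLM3 has 2406, and AT4G16880, a leucine-rich repeat fragment, has 462. Coding identity was 95.8% between AT4G16940 and AT4G16960, 93.8% between AT4G16920 and RPP5, 91.3% between SNC1 and RPP5, 90.1% between RPP4 and RPP5 and 87.5% between RPP4 and SNC1. RLM3 was the most distant, with 46.1% to 63.5% to the other 8 members.

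Because 3' reads come from the ends of transcripts, the ends decide whether the members' reads can be told apart. The last 60 coding bases of the 6 members with enough counts for a test are shown 5′ to 3′ with the stop codon in capitals. They lie at chr4:9488584-9488643 (RPP4), chr4:9496550-9496609 (AT4G16880), chr4:9500506-9500565 (SNC1) and chr4:9512329-9512388 (AT4G16900) on the minus strand and chr4:9565166-9565225 (RLM3) on the plus strand of TAIR10.1, and those of RPP5 cross an intron on the minus strand.
RPP4: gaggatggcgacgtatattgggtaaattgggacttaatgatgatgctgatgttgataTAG
AT4G16880: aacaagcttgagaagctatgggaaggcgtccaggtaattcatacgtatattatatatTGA
SNC1: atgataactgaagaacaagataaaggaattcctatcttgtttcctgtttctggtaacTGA
AT4G16900: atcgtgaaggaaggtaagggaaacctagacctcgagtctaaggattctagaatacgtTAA
RPP5: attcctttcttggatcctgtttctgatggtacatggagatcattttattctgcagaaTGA
RLM3: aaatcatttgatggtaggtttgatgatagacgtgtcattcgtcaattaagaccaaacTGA
Over these coding ends of all 9 members, the longest exact run that any pair shared was 11 bases, in SNC1 and RPP5. Coding ends are not transcript ends: past its stop, the AT4G16880 gene runs on from chr4:9496550 to chr4:9495983. The run of 11 bases therefore does not decide whether 3' reads can be told apart. The last 500 bases, UTRs included, were read from a single transcript per locus, the one with the longest coding sequence. RLM3 has 19 annotated coding transcripts, RPP5 6 and SNC1 5, and which ends were in use is not known. In the transcripts read, 0% of the 50-base words of RLM3 occurred elsewhere in the genome, against 5.54% for SNC1, 13.3% for AT4G16900, 20.4% for AT4G16880, 27.1% for RPP5 and 27.5% for RPP4. Words found in another cluster member made up 4.88% for SNC1, 11.8% for RPP5, 11.1% for RPP4 and 20.4% for AT4G16880, and 0% for AT4G16900 and RLM3. With 75-base words the shares found in another member were 0% for SNC1, AT4G16900, RPP5 and RLM3, 0.47% for RPP4 and 15.7% for AT4G16880, while 51 of the 426 words of RPP4 and 39 of the 426 of RPP5 still occurred elsewhere in the genome. All words were cut from spliced transcripts but sought in the genome. A word across an exon junction could not match a gene that holds an intron there, so these shares may be too low. The sources used here state neither read length nor counting tool nor strand, so how reads of the shared stretches were assigned is not known.

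The stretches just upstream of the annotated starts are shown for the genes that the comparison turns on, 5′ to 3′ on the gene's strand and ending at the base before the start. Capitals mark runs of 12 or more bases found exactly, in the same orientation, in the upstream stretch of another member. Each stretch runs for up to 250 bases and stops at the next annotated locus: chr4:9495838-9495982 for RPP4, chr4:9497314-9497563 for AT4G16880, chr4:9505973-9506222 for SNC1 and chr4:9544756-9544789 for RPP5 on the minus strand, and chr4:9558321-9558570 for RLM3 on the plus strand, all in TAIR10.1.
RPP4: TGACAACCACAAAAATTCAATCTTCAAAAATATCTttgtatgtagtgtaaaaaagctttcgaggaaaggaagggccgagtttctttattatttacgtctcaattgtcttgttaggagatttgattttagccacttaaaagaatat
AT4G16880: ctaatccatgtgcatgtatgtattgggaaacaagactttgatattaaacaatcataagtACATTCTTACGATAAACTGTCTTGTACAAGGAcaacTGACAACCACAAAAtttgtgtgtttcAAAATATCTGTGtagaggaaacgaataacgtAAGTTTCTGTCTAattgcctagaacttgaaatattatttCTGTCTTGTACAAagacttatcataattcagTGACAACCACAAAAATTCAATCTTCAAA
SNC1: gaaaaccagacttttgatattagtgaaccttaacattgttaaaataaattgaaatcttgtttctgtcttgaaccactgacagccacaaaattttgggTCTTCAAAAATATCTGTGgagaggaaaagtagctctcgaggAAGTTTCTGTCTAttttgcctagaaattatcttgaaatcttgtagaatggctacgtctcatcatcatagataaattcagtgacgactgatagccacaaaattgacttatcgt
RPP5: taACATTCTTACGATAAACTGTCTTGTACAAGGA
RLM3: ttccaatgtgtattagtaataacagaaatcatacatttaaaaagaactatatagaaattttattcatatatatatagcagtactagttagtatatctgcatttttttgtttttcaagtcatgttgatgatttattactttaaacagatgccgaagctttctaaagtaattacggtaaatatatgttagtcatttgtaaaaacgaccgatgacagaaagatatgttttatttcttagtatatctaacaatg
The stretches of AT4G16880 and RPP5 shared a run of 32 bases, those of RPP4 and AT4G16880 a run of 28, and those of RPP4 and SNC1 a run of 15. The stretch before RLM3 shared 0 such runs. In the window from 250 bases before to 50 after the start, searched on both strands, the W-box letters TTGACC were found in 0 of the 9 members and TTGACT in SNC1 alone, 12 bases before its start. These letters, bound by WRKY factors, were present in either form in 32.4% of 27443 Arabidopsis windows of this length. TGACG, the core of TGA factor sites, was found in SNC1, AT4G16920 and RPP5 and in 23.1% of all windows. The letters TGAC are common to all 3 searches, and a match is a match of letters only.

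Libraries held 4400433 to 4537653 counts in los2-5 and 3563033 to 4598645 counts in Col-0, and levels are CPM, counts relative to the library size after TMM scaling. LOS2 itself was at 120, 115 and 123 CPM in los2-5 libraries, against 110, 124 and 106 CPM in Col-0 libraries (log2 fold change 0.08 ± 0.12, adjusted p = 0.71, edgeR). Where the los2-5 lesion lies is not stated in these sources, and a 3' tag outside it does not check the genotype. Of the shoot's possible contaminants, 5 root markers summed to 47.3 to 67.9 CPM in los2-5 and 53.7 to 66.7 CPM in Col-0, nearly all from PYK10, with the root hair gene EXPA7 at 0. The 4 flower markers summed to 0.430 to 1.73 CPM in los2-5 and 1.13 to 3.54 CPM in Col-0, and 2 of the 3 seed storage markers were at 0.

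RPP4 and RLM3, at the opposite ends of the cluster, rose 2.23-fold and 1.73-fold in los2-5. SNC1 rose 1.34-fold, with a call that was lost under 8 of 14 alternative settings, and 0 of the tested members fell. Of the 9 members, 6 had enough counts for a test, and 3 of these were called higher by edgeR (adjusted p up to 0.05). Over all 13952 genes tested, 9.92% were called higher and 10.6% lower, 20.5% in all, and without Col-0 replicate 3 these were 831 and 927 genes, against 1384 and 1477 with all 6 libraries. The other 3 tested members, AT4G16880, AT4G16900 and RPP5, had positive log2 fold changes that were not called. The median log2 fold change of the 6 was 0.50, in a range of 0.21 to 1.16, against 0.02 over all genes tested. For 5 of the 6 every los2-5 library lay above every Col-0 library, as did 18.7% of all genes tested (the reverse held for 18.6%). At an unadjusted p under 0.05, 5 of the 6 were higher and 0 lower, against 16.8% of all genes higher. DESeq2 and limma-voom each called 2 members, RPP4 and RLM3, against 5.79% of all genes higher in DESeq2 and 9.23% in limma-voom. Each of the 6 had at least 22 counts in each library, so that none was kept through 1 genotype alone.

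RPP4, the downy mildew resistance gene, had 173, 281 and 227 counts in los2-5 libraries, against 59, 87 and 117 counts in Col-0 libraries. As levels these were 37.3, 60.4 and 49.3 CPM in los2-5, against 17.4, 21.4 and 26.5 CPM in Col-0. The genotypes did not overlap, and the lowest los2-5 library stood above the highest Col-0 library. The means were 49.0 ± 11.5 CPM in los2-5 and 21.7 ± 4.53 CPM in Col-0 (SD, n = 3 each), a 2.23-fold difference. The log2 fold change of 1.16 ± 0.19 (SE) had an adjusted p of 0.000137 in edgeR, and 3.25% of all genes tested had a higher one. RPP4 was called under all 14 alternative settings, with log2 fold changes of 0.98 to 1.32. In bulk shoots, more cells that express a gene and more RNA per cell cannot be told apart.

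AT4G16880 lies 145 bases upstream of RPP4 on the same strand and did not pass the test. Its levels were 19.2, 15.5 and 21.3 CPM in los2-5 libraries, against 10.6, 20.2 and 17.0 CPM in Col-0 libraries, and the genotypes overlapped. The log2 fold change was 0.21 ± 0.21 (adjusted p = 0.51, edgeR), and without Col-0 replicate 1, the lowest library, it turned to -0.0033.

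SNC1 had 175, 213 and 217 counts in los2-5 libraries, against 104, 132 and 151 counts in Col-0 libraries. Its levels were 37.8, 45.8 and 47.1 CPM in los2-5, against 30.7, 32.4 and 34.1 CPM in Col-0. The genotypes did not overlap, but the lowest los2-5 library stood close above the highest Col-0 library. SNC1 rose 1.34-fold, with a log2 fold change of 0.42 ± 0.15 and an adjusted p of 0.047 in edgeR, and 18.9% of all genes tested had a higher one. This call lay at the edge of the threshold: it was lost under 8 of the 14 alternatives, over which the adjusted p ran from 0.011 to 0.15. Leaving out any library other than los2-5 replicate 1 gave an adjusted p of 0.11 to 0.15, DESeq2 gave 0.13 and limma-voom 0.056.

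AT4G16900, a TIR-class gene between SNC1 and RPP5, was at 10.4, 9.45 and 9.99 CPM in los2-5 libraries, against 6.49, 6.88 and 6.56 CPM in Col-0 libraries. RPP5, the gene of the cluster's name, was at 23.5, 22.3 and 24.1 CPM in los2-5 libraries, against 16.8, 18.4 and 17.4 CPM in Col-0 libraries. Both genes were higher in all 3 los2-5 libraries, with a narrow spread within each genotype, and neither was called. The log2 fold changes were 0.58 ± 0.22 for AT4G16900 (adjusted p = 0.070, edgeR) and 0.41 ± 0.17 for RPP5 (adjusted p = 0.085, edgeR). Each passed under 1 of 14 alternatives, scaling by library size alone, which raised the median of all genes by 0.12 on the log2 scale. RPP5 shares 1031 bases with AT4G16955 on the opposite strand, which had 0 counts in los2-5 and 1 count in Col-0. It also overlaps AT4G02965, a noncoding RNA locus on the same strand, by 223 bases at its 3′ end, and how reads there were counted is not known.

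RLM3, at the far end of the cluster, had 1074, 1240 and 1078 counts in los2-5 libraries, against 424, 641 and 624 counts in Col-0 libraries. Its levels were 232, 266 and 234 CPM in los2-5, against 125, 158 and 141 CPM in Col-0, with no overlap. The means were 244 ± 19.4 CPM in los2-5 and 141 ± 16.2 CPM in Col-0 (SD, n = 3 each), a 1.73-fold difference. The log2 fold change was 0.79 ± 0.13, with an adjusted p of 0.000101 in edgeR, and 7.29% of all genes tested had a higher one. It was called under all 14 alternatives, with log2 fold changes of 0.70 to 0.91. As given above, the end of the RLM3 transcript examined shared 0% of 50-base words with the rest of the genome.

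The other 3 members had counts at or near 0 in both genotypes. AT4G16920 had 2, 2 and 5 counts in los2-5 libraries, against 1, 2 and 0 counts in Col-0 libraries. Its ratio over the summed, scaled counts was 2.56, with an exact 95% interval of 0.640 to 14.7 that covers counting error only. AT4G16940 had 0 counts in los2-5 and 1 count in Col-0, and AT4G16960 had 3 counts in los2-5 and 3 counts in Col-0. Both were at or under a floor of 3 counts, and no difference was detectable at this depth. Of the 50-base words at the transcript end, 26.6% occurred elsewhere in the genome for AT4G16920, 14.6% for AT4G16960 and 0% for AT4G16940. AT4G16920 also overlaps AT4G16915 on the opposite strand by 748 bases. How reads there were counted is not known, so low counts of AT4G16920 and AT4G16960 need not be low levels.

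**Figure D1:**
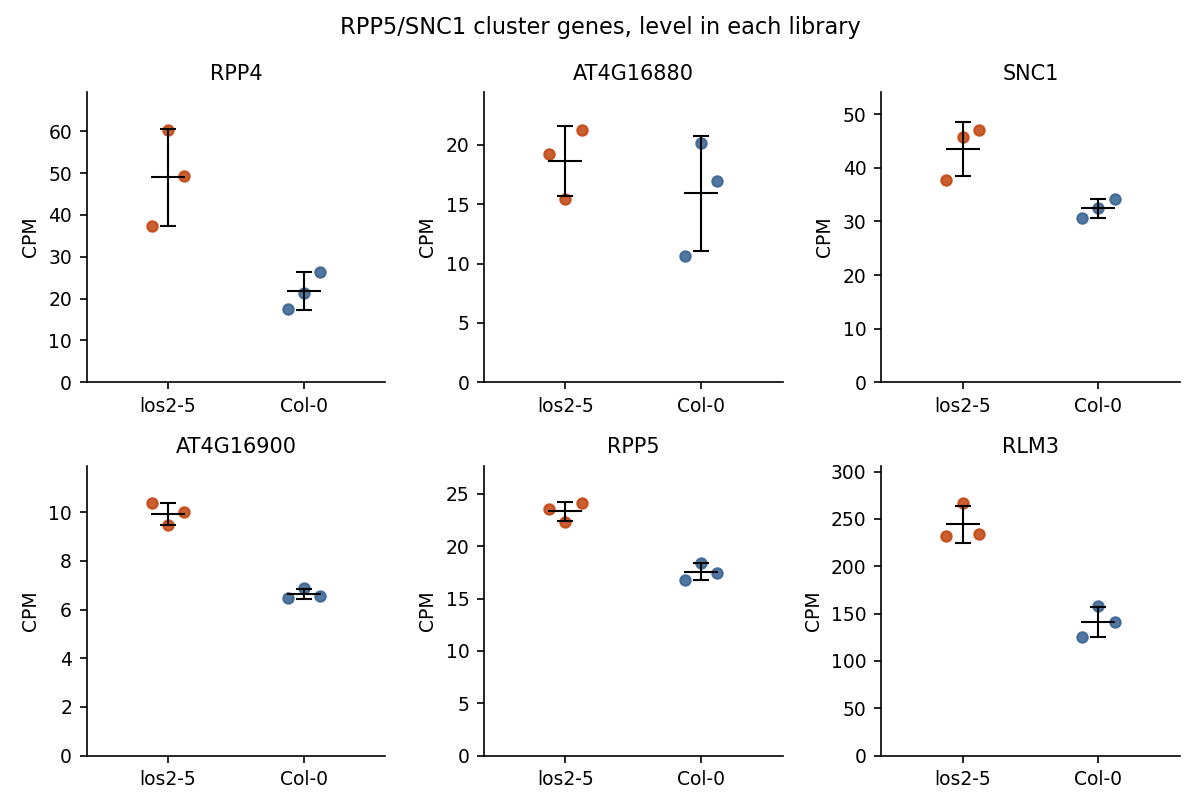
Levels in CPM on TMM-scaled library sizes for the 6 tested members, with each point 1 library and the bar and whiskers the mean ± SD of 3 libraries; each panel has its own axis from 0. All los2-5 libraries lie above all Col-0 libraries for RPP4, SNC1, AT4G16900, RPP5 and RLM3, and the genotypes overlap for AT4G16880.

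The sum over the 9 members does not depend on how reads were split between them. It does not restore reads that were dropped or assigned to loci outside the 9. The summed cluster was at 360, 420 and 387 CPM in los2-5 libraries, against 207, 258 and 243 CPM in Col-0 libraries. The ratio of the means was 1.65. Without RLM3 the other 8 members summed to 129, 154 and 153 CPM in los2-5, against 82.3, 100.0 and 102 CPM in Col-0, a ratio of 1.53, and without RPP4 as well the ratio was 1.32. Each of these sums was higher in every los2-5 library than in any Col-0 library.

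Whether the members moved by the same factor was examined within libraries, where counts of a member per SNC1 count need no scaling. RPP4 had 0.989, 1.32 and 1.05 counts per SNC1 count in los2-5 libraries, against 0.567, 0.659 and 0.775 in Col-0 libraries. RLM3 had 6.14, 5.82 and 4.97 counts per SNC1 count in los2-5, against 4.08, 4.86 and 4.13 in Col-0. The genotypes did not overlap for these 2 ratios, and the exact two-sided permutation p was 0.1 for each, the smallest that 3 against 3 libraries can give (0.25 adjusted over the 5 ratios computed). RPP5 had 0.541 ± 0.0719 counts per SNC1 count in los2-5 and 0.542 ± 0.0296 in Col-0 (exact permutation p = 1), and the ratios of AT4G16900 and AT4G16880 overlapped as well. The ratios were chosen after the values had been seen. As shares of the 9 members' counts, SNC1 made up 11.2 ± 0.879% in los2-5 and 13.8 ± 1.12% in Col-0 (exact permutation p = 0.1), and RLM3 62.7 ± 2.03% in los2-5 and 59.8 ± 1.64% in Col-0 (exact permutation p = 0.2). Counts were not divided by transcript length, so shares are compared between genotypes and not between genes.

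**Figure D2:**
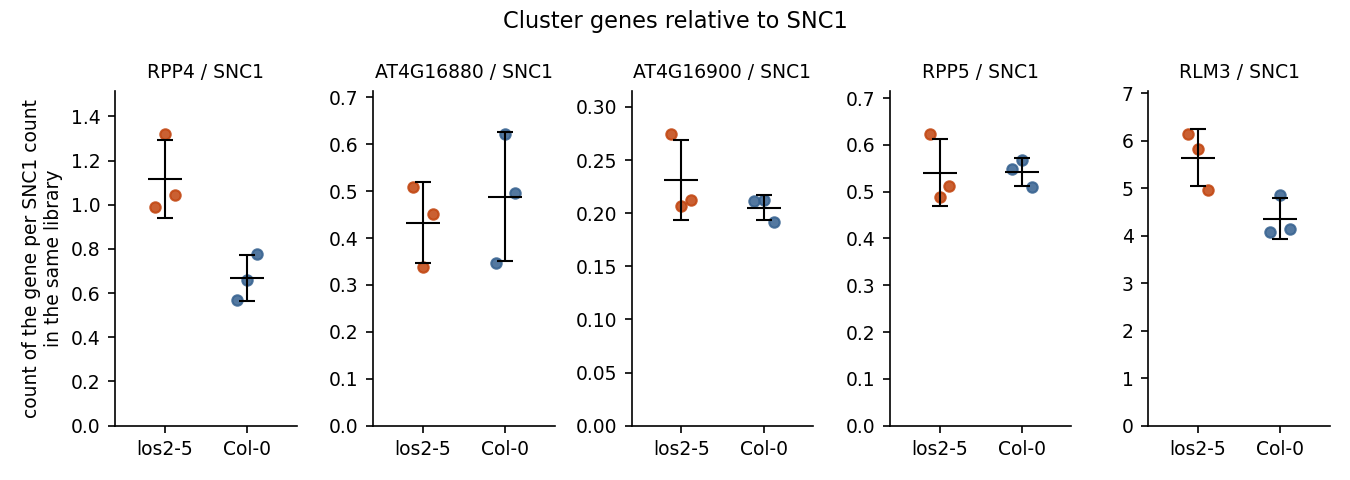
Counts of each tested member per SNC1 count of the same library, in los2-5 and Col-0, with each point 1 library and the bar and whiskers the mean ± SD of 3 libraries. RPP4 and RLM3 do not overlap between the genotypes and are higher relative to SNC1 in los2-5 (exact permutation p = 0.1 each), while RPP5, AT4G16900 and AT4G16880 overlap between the genotypes.

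The loci that stand between and beside the receptor genes gave a comparison by position. Of 29 loci from AT4G16800 to AT4G17050 that are no members, 10 lie inside the span and 19 flank it. A further 7 annotated RNA loci inside the span have other identifiers: 5 had 0 counts in all libraries and 2, AT4G02965 and AT4G06430, were not analysed here. Of the 10, 3 had 0 counts in all libraries, 6 were counted but too low for a test, and 1 was tested. This was AT4G16980, an arabinogalactan-protein family gene next to RLM3, at 1213, 1157 and 1257 CPM in los2-5 libraries, against 1823, 1740 and 1463 CPM in Col-0 libraries. It fell, with no overlap between the genotypes and a log2 fold change of -0.47 ± 0.11 (adjusted p = 0.0052, edgeR), and was called under all 14 alternatives. Of the flanking loci 9 were tested and 0 were called by edgeR, DESeq2 or limma-voom, with 0 at an unadjusted p under 0.05 and log2 fold changes of -0.47 to 0.47. Among these loci the genotypes did not overlap for EXLB1, higher in los2-5, and for AT4G16830 and UGLYAH, lower in los2-5. Every los2-5 library lay below every Col-0 library for 18.6% of all genes tested. Some of the untested neighbours are annotated much like the members, AT4G16857 as TIR-NBS-LRR class and AT4G16930 as a TIR domain protein. AT4G16957, 34 bases upstream of RPP5, is annotated as a SUPPRESSOR OF, CONSTITUTIVE protein. AT4G16957 had 34 counts in los2-5 and 16 counts in Col-0 and was not tested. Its levels were 2.16, 2.15 and 3.04 CPM in los2-5 libraries, against 1.18, 1.97 and 0.905 CPM in Col-0 libraries, with no overlap. Of all genes tested, 18.7% also had every los2-5 library above every Col-0 library. The genotypes overlapped for the other loci inside the span that were counted but not tested.

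**Figure D3:**
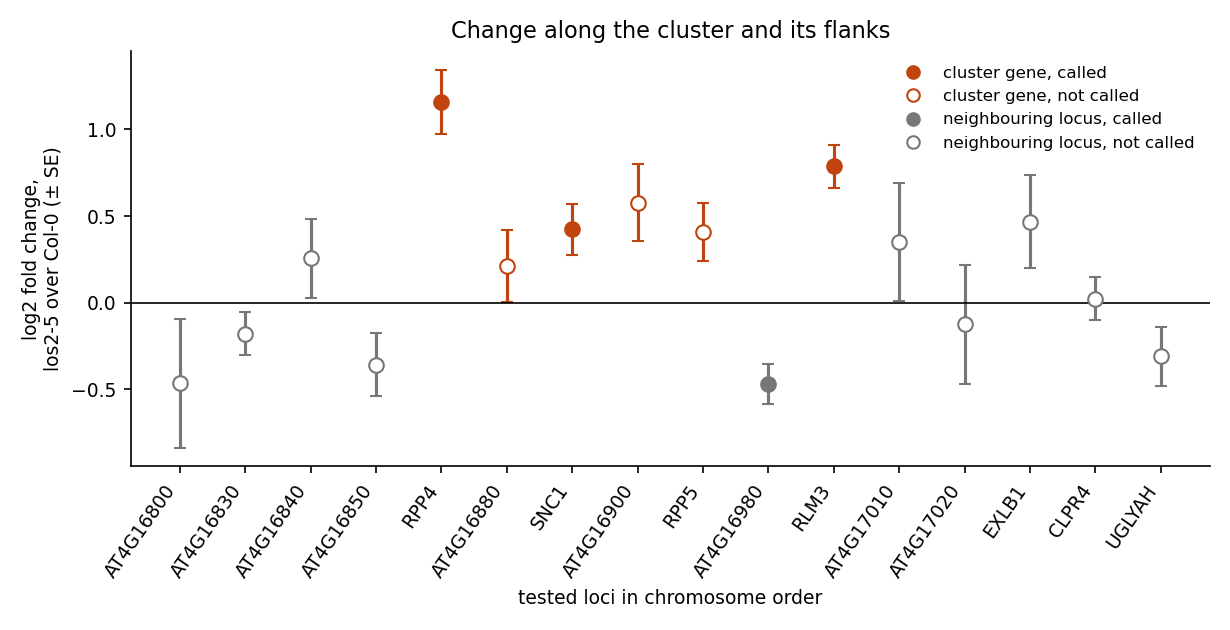
Log2 fold change of los2-5 over Col-0 with its SE for the 6 tested members and the 10 tested neighbouring loci, in chromosome order (the x axis is not to scale). The 3 called members lie above 0, AT4G16980 is the called neighbour and lies at -0.47, and the 9 flanking loci were not called.

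Outside the cluster, 84 further loci are annotated as TIR-NBS-LRR class, and 37 of them were tested. Of these 19 were called higher and 0 lower by edgeR, against 9.92% of all genes higher, with a median log2 fold change of 0.82, beside 3 of 6 cluster members, whose median was 0.50. With DESeq2 13 of these genes were higher and with limma-voom 19 (5.79% and 9.23% of all genes), and edgeR called 12 when Col-0 replicate 3 was left out. Whether the cluster and the other TIR-class genes differ was not tested.

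Genes for the proteins that transmit the signal of TIR-class receptors rose in los2-5 more often than not. Of 10 genes listed, 9 were tested, and 7 were called higher, 0 lower, against 9.92% of all genes higher, with a median log2 fold change of 1.07. PAD4, a partner of EDS1, was at 111, 128 and 171 CPM in los2-5 libraries, against 42.2, 36.1 and 27.1 CPM in Col-0 libraries (log2 fold change 1.97 ± 0.18, adjusted p = 5.1e-07, edgeR). EDS1 was at 25.0, 35.5 and 40.4 CPM in los2-5, against 10.6, 11.1 and 12.2 CPM in Col-0 (1.57 ± 0.20, adjusted p = 6.3e-06, edgeR). The helper NLR gene ADR1 was at 14.5, 15.3 and 18.2 CPM in los2-5, against 4.13, 5.16 and 4.52 CPM in Col-0 (1.78 ± 0.23, adjusted p = 7.8e-06, edgeR). The genotypes did not overlap for these 3 genes. AT3G48080, the copy of EDS1 beside it, is among the 7 called (2.79 ± 0.46, adjusted p = 0.000173, edgeR). It had 16, 19 and 24 counts in los2-5 libraries, against 3, 2 and 2 counts in Col-0 libraries. It thus passed the filter on low counts only through los2-5, where it was higher, so its call carries little weight. Reads of such copies may not be separated.

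Of 37 listed regulators of SNC1 or of NLR proteins, 31 were tested, and edgeR called 5 higher and 0 lower, with a median log2 fold change of 0.19. This is 16.1% of those tested, against 9.92% of all genes higher. Those called higher were 2 of 8 tested for protein turnover and folding, 0 of 7 for chromatin and transcription, 1 of 11 for splicing and nuclear transport, 0 of 3 for RNA silencing and 2 of 2 for partners of BON1. The BON1 partners BAP1 and BAP2, which hold down defence and cell death, rose most. BAP2 was at 25.5, 22.6 and 45.6 CPM in los2-5 libraries, against 4.43, 6.39 and 2.94 CPM in Col-0 libraries (2.77 ± 0.33, adjusted p = 7.0e-05, edgeR). BAP1 was at 7.12, 14.6 and 15.4 CPM in los2-5, against 5.02, 2.95 and 2.49 CPM in Col-0 (1.86 ± 0.33, adjusted p = 0.000430, edgeR). The genotypes did not overlap for either gene, and both were called under all 14 alternatives.

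The other called regulators were close to the threshold. AT5G43560, known as MUSE13, encodes a TRAF-domain protein of receptor turnover and rose by 0.80 ± 0.25 on the log2 scale (adjusted p = 0.028, edgeR). AT1G14200, known as the E3 ligase SNIPER1, rose by 0.53 ± 0.17 (adjusted p = 0.034, edgeR). The importin gene MOS6, needed for the phenotype of the active snc1 allele, rose by 0.93 ± 0.33 (adjusted p = 0.049, edgeR). MOS6 had 17, 23 and 23 counts in los2-5 libraries, against 8, 11 and 9 counts in Col-0 libraries. It was kept by the filter on low counts through los2-5, where it was higher, so its call carries little weight. AT5G43560 and AT1G14200 were each lost under 6 of 14 alternatives and MOS6 under 10. DESeq2 called 2 regulators and limma-voom 3, and edgeR called 2 without los2-5 replicate 2, 3 without Col-0 replicate 1 and 2 without Col-0 replicate 2 or replicate 3.

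Several regulators with a direct genetic link to SNC1 did not pass the test. CPR1, the F-box protein that marks SNC1 for degradation, was at 2.16, 6.02 and 3.47 CPM in los2-5 libraries, against 6.20, 4.42 and 7.24 CPM in Col-0 libraries (log2 fold change -0.61 ± 0.33, adjusted p = 0.20, edgeR). Its genotypes overlapped, and without los2-5 replicate 2 it was called, at -1.08. The negative regulator SRFR1 had a log2 fold change of 0.11 ± 0.39 (adjusted p = 0.88, edgeR), which turned to -0.36 without los2-5 replicate 2 and to -0.16 without Col-0 replicate 2. MOS1, which promotes SNC1 transcription, had -0.38 ± 0.27 (adjusted p = 0.35, edgeR). The chromatin remodeller DDM1, listed as CHR1, had 0.36 ± 0.26 (adjusted p = 0.36, edgeR). CHR5, another remodeller that acts on SNC1, had 5, 12 and 8 counts in los2-5, against 0, 2 and 5 counts in Col-0, too few for a test. BON1 was listed at 0 in all libraries. Its whole span of 3681 bases lies within AT5G61910 on the same strand, which had 29 counts. How reads there were counted is not known, so this 0 cannot be read as a level of BON1.

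**Figure D4:**
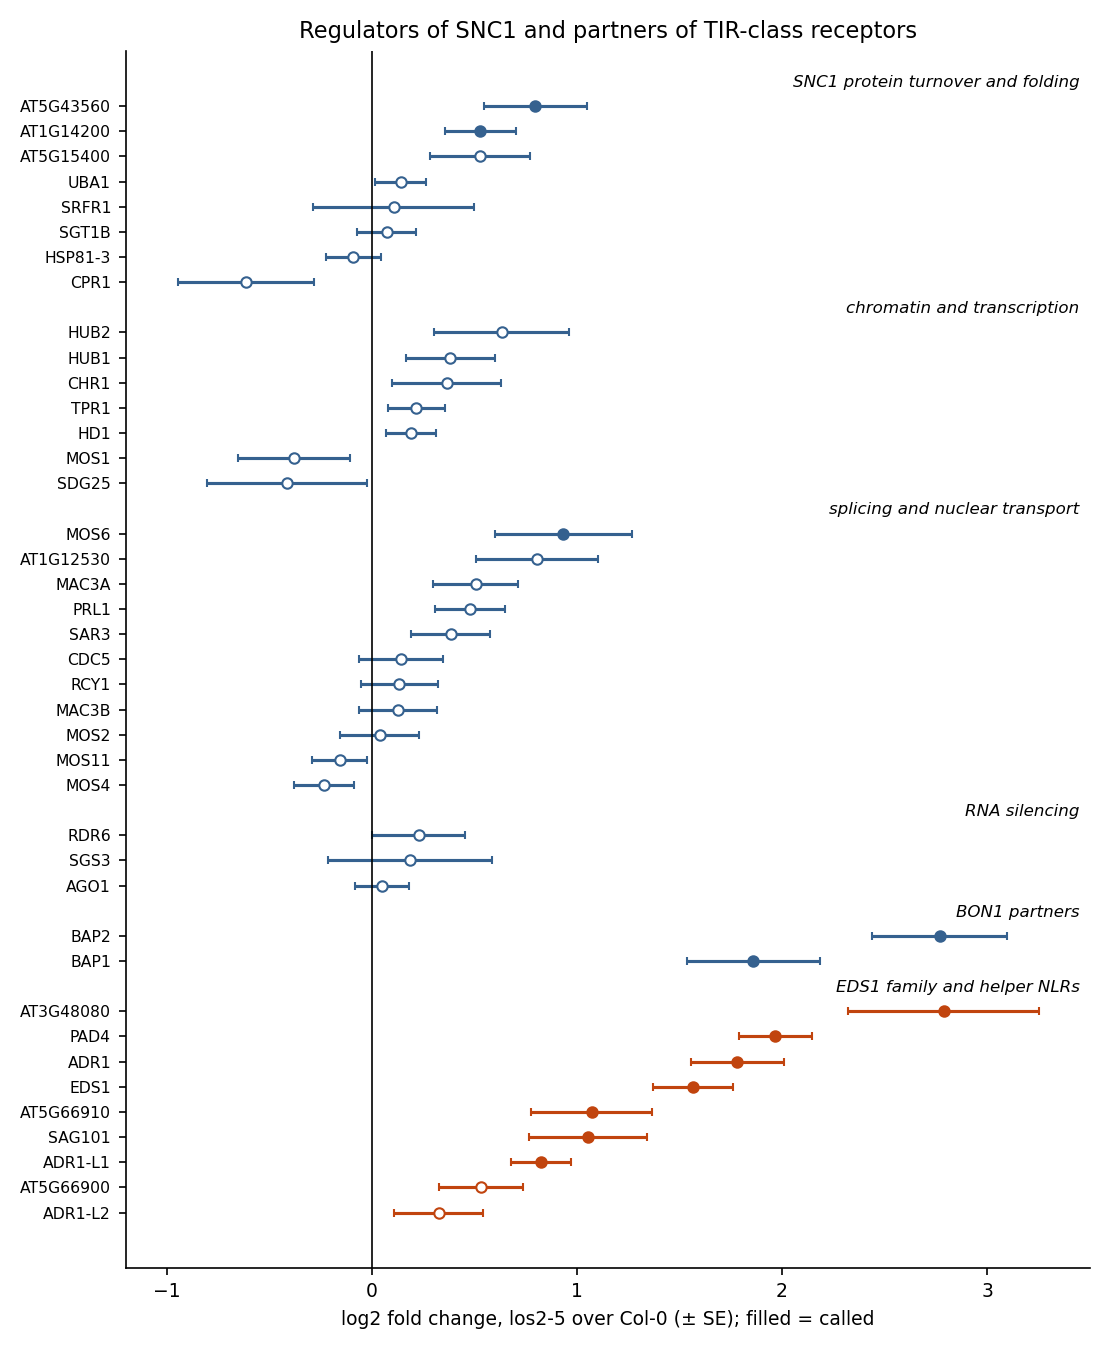
Log2 fold change of los2-5 over Col-0 with its SE for the tested regulators of SNC1 (blue) and for the EDS1 family and helper NLR genes (orange), grouped by role, with filled points for called genes. The BON1 partners BAP2 and BAP1 lie at 2.77 and 1.86, and among the regulators that were not called CPR1 lies lowest, at -0.61.

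Genes with a profile most like that of a member over the 6 libraries were ranked by the root mean square difference of centred log2 CPM among 13898 genes. Closest to RLM3 were AT5G11910 (0.056), AL6 (0.059), AT1G20920 (0.066), AT1G75000 (0.071) and AT3G02760 (0.074). Closest to SNC1 were SCL13, AT2G31730 and AT3G44190 (0.046 each), ASP2 (0.048) and PAE1 (0.052). None of these 10 is a cluster member. Of the members, RPP5 stood 304th in likeness to SNC1, AT4G16900 787th, RLM3 2709th, AT4G16880 5454th and RPP4 8734th, while AT4G16900 stood 283rd in likeness to RLM3. These ranks describe 6 libraries that share their scaling and their genotype contrast.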

How the data were processed

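3' RNA-seq libraries of whole shoots, 3 of los2-5 and 3 of Col-0, were compared. The authors deposited raw read counts per gene, and these entered the tests unchanged. STAR, edgeR and the build TAIR10 are named, with no versions, in the submitters' processing notes. The counting tool, annotation and strand are not stated there. All 37051 identifiers matched locus tags of RefSeq TAIR10.1, from which names, coordinates and sequences were read. Because the table holds identifiers and no coordinates, none were converted.

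Genes that passed filterByExpr (minimum count 10, total 15) were fitted in edgeR 4.0.16 under R 4.3.3, after TMM scaling, by a robust quasi-likelihood model with a term for genotype. Benjamini-Hochberg adjustment covered the 13952 genes kept, with calls up to an adjusted p of 0.05. The SE follows from the log2 fold change and the F statistic. The common dispersion was 0.0155. Alternatives were DESeq2 1.42.0, limma-voom (limma 3.58.1), other scalings and filters, a replicate block and leaving out each library. The procedure was tested on simulated data.

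Coding identity came from a mafft 7.526 alignment of the longest coding sequences, in place of a planned comparison of proteins. Profile likeness used log2 CPM with a prior count of 2 in genes averaging 2 CPM or more. Replicates differed by more than counting noise (chi-square per degree of freedom 2.94 to 7.27), so each counted as 1 sample. Intervals and floors cover counting error only.

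The members, lists and tests were chosen with earlier results of these data known. Named were all members, tested loci inside the span and flanking ones if called, up to 4 called genes of each list with the smallest p, SRFR1, CPR1, BON1, MOS1, DDM1 and CHR5, and the 5 closest profiles to SNC1 and to the called member with the smallest p. LOS2, the markers, AT4G16957, AT4G16955, other neighbouring or overlapping loci that were not called and the genes of the closing observations were named outside this rule.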

Additional observations from a re-analysis of the deposited data

How the results depend on the processing

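RPP4, RLM3 and AT4G16980 kept their direction and call under all 14 alternatives. Scaling by library size alone, which shifted the median of all genes by 0.12 on the log2 scale, gave 5 called cluster members in place of 3, 8 higher regulators of SNC1 in place of 5, and 2179 higher and 989 lower genes in place of 1384 and 1477. DESeq2 called 873 genes higher and 2 regulators higher, and limma-voom 3 regulators. Leaving out each library gave 2 to 3 called cluster members, 831 to 1537 higher and 927 to 1606 lower genes, 2 to 5 higher and 0 to 1 lower regulators, 12 to 20 higher TIR-class genes and a ratio of summed counts of 1.56 to 1.73. The ratio was 1.80 with library size alone and 1.53 without RLM3, an alternative chosen after seeing the data. Over the libraries left out, 4 uncalled genes changed sign: AT4G16880 ranged from -0.0033 (without Col-0 replicate 1) to 0.41, AT4G17020 from -0.40 to 0.12 (without Col-0 replicate 2; 0.028 without los2-5 replicate 2), CLPR4 from -0.063 (without los2-5 replicate 2; -0.0061 without Col-0 replicate 3) to 0.11, and SRFR1 from -0.36 (without los2-5 replicate 2; -0.16 without Col-0 replicate 2) to 0.42. The cause was not tested. Same-numbered libraries deviated together with correlations of 0.051, -0.00068 and -0.048, so no pairing by number was seen. Deviations from the mean of only 3 libraries cannot show that the samples are unpaired. With a replicate block 3 cluster members were called, SNC1 at an adjusted p of 0.047, and 1517 genes were higher and 1598 lower in edgeR. Depth limits AT4G16920, AT4G16940 and AT4G16960, at 0 to 9 counts per genotype, and 3 libraries per genotype limit the calls near the threshold, SNC1 among them.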

Other observations

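Of the signalling genes of TIR-class receptors not described above, 3 rose and 2 were not called. SAG101, a partner of EDS1, had a log2 fold change of 1.05 ± 0.29 (adjusted p = 0.012, edgeR), which was not called without los2-5 replicate 2 or without Col-0 replicate 2. AT5G66910, a helper NLR of the NRG1 family, rose by 1.07 ± 0.29 (adjusted p = 0.012, edgeR) and was not called by DESeq2 or without Col-0 replicate 3. ADR1-L1 rose by 0.82 ± 0.15 (adjusted p = 0.000362, edgeR) and was called under all 14 alternatives. Its relative ADR1-L2 had 0.33 ± 0.22 (adjusted p = 0.31, edgeR), and AT5G66900, next to AT5G66910, had 0.53 ± 0.21 (adjusted p = 0.068, edgeR). Neither of these was called.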
